A study of Homo sapiens with 6 samples.

Results

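Transcripts of 44 genes that encode Polycomb group proteins and the enzymes that oppose them were followed in a human leukemia cell line treated with an inhibitor of EZH2, and none of the 41 that could be tested passed the test for a change, which 4.26% of all tested genes passed. The genes were chosen by symbol, as the core and accessory subunits of Polycomb repressive complex 2 (PRC2), the subunits of canonical and variant Polycomb repressive complex 1 (PRC1), the H3K27 demethylases and the BAP1 complex, and they are 44 of the 60671 genes in the count files. K562, a line from a chronic myeloid leukemia, was used as 1 clone in which doxycycline switches on Lamin B1 joined to M.CviPI, an enzyme that methylates GpC sites, with a Flag tag and a nuclear localization signal. Both groups held 3 separate cultures. In the EZH2i group the cells received GSK343 at 1 µM for 72 h, in the DMSO group they received the vehicle at 0.1% for the same time, and both groups were induced with doxycycline at 1 µg/mL over the last 24 h, so no library came from cells without the fusion. The comparison asks whether blocking the catalytic subunit of PRC2 altered the RNA of the Polycomb machinery itself.

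PRC2 places methyl groups on lysine 27 of histone H3, up to the trimethylated form H3K27me3, through EZH2 or its paralog EZH1. PRC1 carries the E3 ligases RING1 and RNF2, which add ubiquitin to histone H2A, and its canonical forms read H3K27me3 through CBX proteins while its variant forms carry RYBP or YAF2 in their place. KDM6A and KDM6B remove the methyl mark, and the deubiquitinase BAP1 with an ASXL partner removes the ubiquitin mark. GSK343 competes with the methyl donor in the active site of EZH2, so the level of the *EZH2* transcript is not a measure of whether the inhibitor acted, and the transcripts do not report the amounts of protein.

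The promoters of these genes were described by their number of CpG dinucleotides, the sequence feature that some PRC2 accessory proteins and KDM2B are known to bind. RefSeq windows on GRCh38.p14 were matched for 40 of the 44 genes, and the 250 bases before the most upstream start that this RefSeq table lists for each gene were read. They held a median of 25.5 CpG sites, from 1 for *PCGF2* to 47 for *LCOR*, against a median of 21 over the 9307 tested genes with a window and 10 over all 27305 genes with one. The count was above the median of the tested genes for 26 of the 40. The windows of 5 members (*AEBP2*, *EED*, *PCGF2*, *PHF1*, *PHF19*) lie inside the GENCODE gene, downstream of its first start, and the other 35 held a median of 27 with a minimum of 5. Below are stretches from the windows of the inhibited enzyme, of its paralog, of the members with the smallest p-values (*RYBP* and *RNF2*) and of *EZHIP*, a member with no read, each written 5′ to 3′ on the strand of the gene with CpG sites in capitals. The stretches of *EZH2*, *EZH1* and *RNF2* were trimmed to 220, 241 and 218 bases so that none reaches into the GENCODE gene, and the counts that follow are of the stretches and not of the whole windows. That of *EZH2* lies at chr7:148884322-148884541 on the minus strand with 35 CpG sites, that of *EZH1* at chr17:42745050-42745290 on the minus strand with 25, that of *RYBP* at chr3:72446624-72446873 on the minus strand with 17, that of *RNF2* at chr1:185045308-185045525 on the plus strand with 31 and that of *EZHIP* at chrX:51406698-51406947 on the plus strand with 14.
EZH2: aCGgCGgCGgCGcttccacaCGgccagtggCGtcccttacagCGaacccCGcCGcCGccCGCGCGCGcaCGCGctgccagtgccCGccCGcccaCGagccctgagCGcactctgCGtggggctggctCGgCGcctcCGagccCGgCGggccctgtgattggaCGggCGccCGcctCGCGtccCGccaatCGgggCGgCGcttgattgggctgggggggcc
EZH1: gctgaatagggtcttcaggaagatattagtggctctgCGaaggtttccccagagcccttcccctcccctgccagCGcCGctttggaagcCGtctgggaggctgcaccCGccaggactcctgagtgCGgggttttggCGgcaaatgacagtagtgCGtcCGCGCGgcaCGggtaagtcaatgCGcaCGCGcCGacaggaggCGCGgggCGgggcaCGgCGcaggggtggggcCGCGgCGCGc
RYBP: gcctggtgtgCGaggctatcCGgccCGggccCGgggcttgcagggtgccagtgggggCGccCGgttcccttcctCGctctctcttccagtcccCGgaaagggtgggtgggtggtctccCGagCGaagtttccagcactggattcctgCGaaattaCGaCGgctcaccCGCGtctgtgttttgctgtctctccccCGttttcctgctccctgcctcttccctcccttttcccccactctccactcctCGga
RNF2: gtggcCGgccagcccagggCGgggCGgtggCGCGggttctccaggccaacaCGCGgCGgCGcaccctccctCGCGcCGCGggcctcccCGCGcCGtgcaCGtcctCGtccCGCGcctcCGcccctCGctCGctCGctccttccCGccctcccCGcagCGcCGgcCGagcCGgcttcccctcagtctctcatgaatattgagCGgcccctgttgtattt
EZHIP: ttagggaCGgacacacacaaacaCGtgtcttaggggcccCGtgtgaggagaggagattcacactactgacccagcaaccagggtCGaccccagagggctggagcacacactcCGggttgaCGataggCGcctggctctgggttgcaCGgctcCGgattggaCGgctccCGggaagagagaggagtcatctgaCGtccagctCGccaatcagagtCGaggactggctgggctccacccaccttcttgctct

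The window of *EZHIP* held CpG sites too, and the number of CpG sites is given as a description of these windows and not as a measure of activity.

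Reads of this 3′ mRNA-seq kit come from the polyadenylated end of a transcript, and the deposited values are raw read counts per gene. Libraries held from 6327544 to 8987768 reads on genes, of which the members took from 0.247% to 0.274%. Levels are given as CPM, the count scaled to library size, here the reads on genes times the TMM factor of the library, and changes as log2 fold changes of EZH2i against DMSO from edgeR's quasi-likelihood test over the 12364 genes that passed its expression filter. EZH2i replicate 1 stood apart from the rest, with a mean absolute deviation from its group of 0.186 on the log2 scale against 0.148 to 0.157 for the other 5 libraries, and EZH2i replicate 3 had 12.7% of its listed reads on no gene against 7.43% to 8.51%. Of 10 erythroid markers of K562, 9 were above 1 CPM, the exception being *HBE1*, and the 3 genes that K562 lacks at 9p21 (*CDKN2A*, *CDKN2B*, *MTAP*) had no read. *HBE1* shares 781 of its 961 exon bases with another gene on its own strand, so its count is less certain. In each of 4 lists of markers of other cell types (T cell, monocyte, fibroblast and epithelial) 1 gene was above 1 CPM (*CD3D*, *LYZ*, *COL1A1*, *EPCAM*), while *CSF1R* and *KRT5* had no read. The summed levels of 4 T cell markers ran from 58.5 to 70.9 CPM in DMSO and from 83.0 to 100.4 in EZH2i, those of 3 monocyte markers from 11.1 to 16.4 and from 20.3 to 23.2, those of 3 fibroblast markers from 1.40 to 2.83 and from 5.53 to 8.85, and those of 3 epithelial markers from 72.5 to 83.2 and from 61.1 to 66.5. Each sum rested mostly on 1 gene, with means over all libraries of 75.7 CPM for *CD3D*, 17.5 for *LYZ*, 3.79 for *COL1A1* and 70.5 for *EPCAM*. All other genes of these 4 lists had means below 1 CPM. As all cultures came from 1 K562 clone, no sum is read as an amount of cells of that type. What part these levels have in any member's value was not tested. In bulk samples fewer cells expressing a gene and less RNA per cell cannot be told apart.

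Of the 44 genes, 41 had reads and all 41 passed the expression filter. *EZHIP*, which encodes an inhibitor of PRC2 normally found in germ cells, the Sex comb on midleg relative *SCML1* and the BAP1 partner *ASXL3* had 0 reads in all 6 libraries, which allows a level of up to 0.468 CPM in the shallowest library (3 reads, counting error only). Levels of the others spanned from 1.96 CPM for the canonical PRC1 subunit *PHC1* to 313 CPM for *EZH2* as means over the 6 libraries, with a median of 37.0 CPM. The median member lay at the 61.2 percentile of the tested genes by level, and 27 of the 41 lay above the median gene. Together the members held 2631 ± 79.9 CPM in DMSO and 2675 ± 65.6 CPM in EZH2i (± SD, n = 3 per group).

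None of the 41 members was called at an adjusted p under 0.05 in the edgeR quasi-likelihood test, with p-values adjusted by Benjamini-Hochberg over all genes tested, where 527 of 12364 tested genes were called. DESeq2 and limma-voom also called 0 of the 41, beside 3.13% and 4.14% of all genes they tested. At an unadjusted p under 0.05 there were 5 members in edgeR, or 12.2%, against 19.1% of all tested genes, and there were 6 in DESeq2 and 5 in limma-voom, where the shares of all genes were 14.4% and 19.4%. The 5 were *RYBP*, *RNF2*, *JARID2* and *LCOR*, each with a positive fold change, and *EED*, with a negative one. The 2 groups of libraries did not overlap for 12 members, EZH2i being above DMSO in 7 and below it in 5, which is 29.3% against a background of 24.5%. Log2 fold changes were below 0 for 21 of the 41 members, beside 50.0% of all tested genes, and their median was -0.01 against -0.00021 over all tested genes. No result about the members is read from these shares.

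The 95% interval of the fold change lay within 1.5-fold in either direction for 29 members and within 2-fold for 40. The exception at 2-fold was *PCGF1*, a variant PRC1 subunit with a log2 fold change of -0.41, whose interval ran from -1.02 to 0.20.

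**Figure D1:**
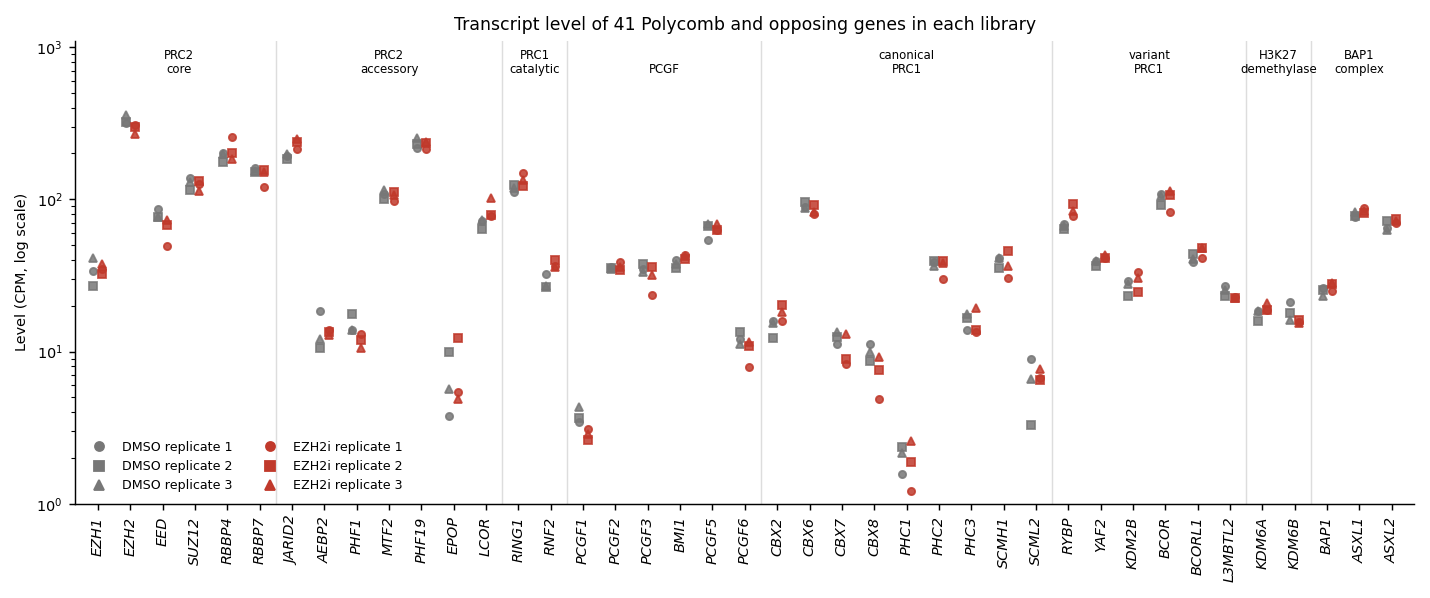
Transcript levels of the 41 members with reads, in CPM on a log axis, with 1 point per library (grey for DMSO, red for EZH2i, the symbol giving the replicate) and members grouped by role. Levels spanned from about 1 CPM for *PHC1* to 360 CPM for *EZH2* in DMSO replicate 3, and within most members the spread between libraries was small beside the spread between members.

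The core of PRC2 was expressed throughout, with all 6 subunits above the median tested gene. *EZH2* (ENSG00000106462, chr7:148807257-148884321, minus strand) was at 319, 323 and 360 CPM in DMSO replicates 1, 2 and 3 and at 310, 296 and 269 CPM in EZH2i. The EZH2i libraries were all below the DMSO libraries, by a narrow margin at the nearest pair. The log2 fold change was -0.19 (standard error 0.102, 95% interval -0.41 to 0.02, adjusted p = 0.306 in edgeR), which does not pass the threshold. *EZH1*, the paralog that can replace EZH2 with weaker catalytic activity, was at 33.7, 27.1 and 41.4 CPM in DMSO and at 34.8, 32.4 and 37.5 CPM in EZH2i. Its groups overlapped, with a log2 fold change of 0.03 (standard error 0.148, 95% interval -0.28 to 0.35, adjusted p = 0.932 in edgeR). *EZH1* made up 9.20% ± 1.32 of the summed *EZH1* and *EZH2* level in DMSO and 10.7% ± 1.30 in EZH2i (SD over 3 libraries), and these ranges overlapped.

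*EED* encodes the subunit that binds H3K27me3 and activates the enzyme. Its level was 85.8, 76.8 and 76.1 CPM in DMSO and 49.5, 67.9 and 72.8 CPM in EZH2i. The lowest value was that of EZH2i replicate 1, and the groups did not overlap. The log2 fold change was -0.33 (standard error 0.132, 95% interval -0.60 to -0.05, unadjusted p = 0.0242, adjusted p = 0.178 in edgeR), and without EZH2i replicate 1 it was -0.17 (adjusted p = 0.398 in edgeR). *SUZ12*, which holds the complex together, was at 139, 115 and 130 CPM in DMSO and 126, 131 and 114 CPM in EZH2i, with overlapping groups and a log2 fold change of -0.05 (95% interval -0.27 to 0.18, adjusted p = 0.858 in edgeR). GENCODE names 1 pseudogene after each of *EZH2*, *EED* and *SUZ12*, and a non-coding gene on the other strand shares exons with *EED*.

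*RBBP4* and *RBBP7* encode histone-binding paralogs shared with other chromatin complexes. *RBBP4* was at 202, 175 and 199 CPM in DMSO and 255, 201 and 185 CPM in EZH2i, and *RBBP7* was at 161, 151 and 154 CPM in DMSO and 120, 155 and 152 CPM in EZH2i. EZH2i replicate 1 had the highest *RBBP4* and the lowest *RBBP7* of the 6 libraries, and the groups overlapped for both genes. The log2 fold changes were 0.16 (adjusted p = 0.521) and -0.13 (adjusted p = 0.587 in edgeR), and they were 0.01 and -0.01 without that library. GENCODE names 7 pseudogenes after *RBBP4* and exons of *SYNC* overlap it on the other strand, so its counts are less certain.

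The order of the core subunits by level was *EZH2*, *RBBP4*, *RBBP7*, *SUZ12*, *EED* and *EZH1*. Each neighbour in that order was higher than the next in 6 of 6 libraries except *RBBP7* over *SUZ12*, which held in 5 of 6, and the same order was found per kb of exon. Division by length is not the natural scale here, since reads from the end of a transcript do not scale with its length. The 6 summed to 923 ± 48.2 CPM in DMSO and 869 ± 34.4 CPM in EZH2i (SD over 3 libraries), with ranges that overlapped.

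Accessory subunits sort PRC2 into a PRC2.1 form, with PHF1, MTF2 or PHF19 and with EPOP or LCOR, and a PRC2.2 form, with JARID2 and AEBP2. *JARID2*, whose product tethers PRC2.2 to chromatin, was at 194, 184 and 198 CPM in DMSO and at 214, 239 and 247 CPM in EZH2i. All EZH2i libraries were above all DMSO libraries, and the log2 fold change was 0.28 (standard error 0.101, 95% interval 0.07 to 0.50, unadjusted p = 0.0117, adjusted p = 0.122 in edgeR). Without EZH2i replicate 1 it was 0.35 and passed the threshold (adjusted p = 0.0370 in edgeR), as did 4.20% of all genes tested without that library. Adjusted p-values over the 12 alternatives ran from 0.0370 to 0.320.

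*PHF19*, a Tudor-domain protein of PRC2.1, had the highest mean of the accessory subunits over the 6 libraries, though it was above *JARID2* in only 4 of them, at 217, 232 and 254 CPM in DMSO and 214, 234 and 237 CPM in EZH2i. Its groups overlapped (log2 fold change -0.04, 95% interval -0.25 to 0.18, adjusted p = 0.890 in edgeR). *PHF19* supplied 65.5% ± 1.42 of the summed *PHF1*, *MTF2* and *PHF19* level in DMSO and 66.1% ± 0.817 in EZH2i (± SD, n = 3 per group). The sum of these 3 was 357 ± 22.3 CPM in DMSO and 346 ± 17.9 CPM in EZH2i, and the sum of *JARID2* and *AEBP2* was 205 ± 9.82 CPM and 247 ± 17.1 CPM (SD over 3 libraries). *JARID2* was 93.4% ± 1.80 of the latter sum in DMSO and 94.6% ± 0.567 in EZH2i.

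Among the other accessory members, *LCOR*, whose locus also encodes the PRC2.1 subunit PALI1, was singled out after its values were seen. It was at 72.5, 64.2 and 72.8 CPM in DMSO and 77.4, 78.6 and 101 CPM in EZH2i, with groups apart and a log2 fold change of 0.30 (95% interval 0.04 to 0.55, unadjusted p = 0.0250, adjusted p = 0.181 in edgeR). Without EZH2i replicate 3, the highest library, it was 0.16. *PHF1*, *MTF2*, *AEBP2* and *EPOP* had log2 fold changes from -0.35 to 0.21 with adjusted p-values from 0.274 to 0.982 in edgeR. The lowest was that of *PHF1*, which was -0.22 without DMSO replicate 2. *EPOP* ran from 3.74 to 9.95 CPM in DMSO and from 4.85 to 12.3 CPM in EZH2i.

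**Figure D2:**
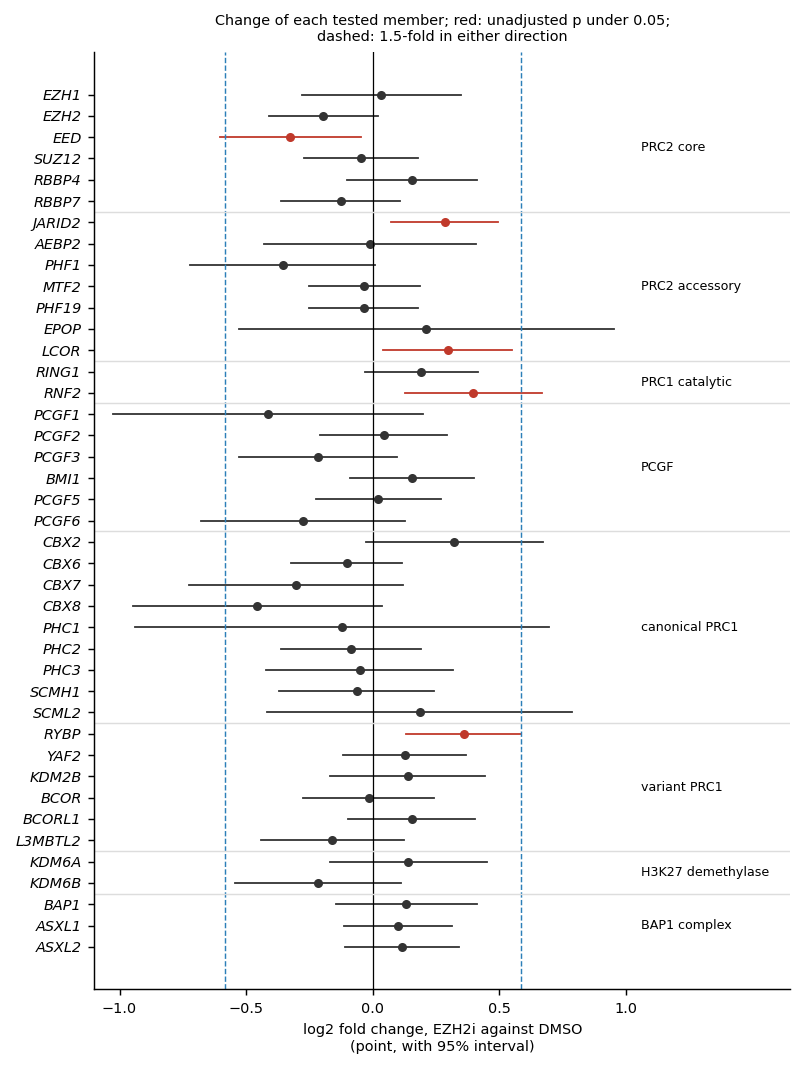
Log2 fold change of EZH2i against DMSO for the 41 tested members (points) with 95% intervals (bars), grouped by role; dashed lines stand at 1.5-fold in either direction and red marks an unadjusted p under 0.05. Intervals of 5 members exclude 0, which is 12.2% against 19.1% of all tested genes, and none of these 5 passed the adjusted threshold.

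Both catalytic subunits of PRC1 had positive fold changes, where 50.0% of all tested genes were below 0. *RNF2* (ENSG00000121481, chr1:185045526-185102603, plus strand), the E3 ligase also called RING1B, was at 32.1, 26.4 and 27.1 CPM in DMSO and at 36.6, 40.0 and 35.7 CPM in EZH2i. The groups were apart, and the log2 fold change of 0.40 was the highest among the 41 members (standard error 0.129, 95% interval 0.13 to 0.67, unadjusted p = 0.00666, adjusted p = 0.0925 in edgeR). Adjusted p-values over the 12 alternatives ran from 0.0800 to 0.290, so it was called in none of them. *RING1* was at 111, 123 and 119 CPM in DMSO and 149, 122 and 133 CPM in EZH2i, with overlapping groups and a log2 fold change of 0.19 (95% interval -0.03 to 0.42, adjusted p = 0.339 in edgeR), which was 0.12 without EZH2i replicate 1. *RNF2* made up 19.5% ± 2.54 of the pair in DMSO and 21.8% ± 2.54 in EZH2i (± SD, n = 3 per group).

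The PCGF proteins each pair with a RING1 ligase and define the type of PRC1, PCGF2 and BMI1 the canonical forms and the other 4 the variant forms. *PCGF5* was the most abundant, at 54.3, 67.1 and 69.2 CPM in DMSO and 62.6, 62.7 and 68.5 CPM in EZH2i, with overlapping groups (log2 fold change 0.02, 95% interval -0.22 to 0.27, adjusted p = 0.946 in edgeR). *PCGF3*, with the smallest p of the 6, was at 34.9, 37.4 and 33.4 CPM in DMSO and 23.4, 35.7 and 31.8 CPM in EZH2i. Its lowest value was in EZH2i replicate 1, its groups overlapped, and the log2 fold change was -0.22 (95% interval -0.53 to 0.10, adjusted p = 0.456 in edgeR) and -0.057 without that library. *BMI1*, *PCGF2*, *PCGF6* and *PCGF1* had adjusted p-values from 0.461 to 0.885 in edgeR. *BMI1* and *PCGF2* together held 39.0% ± 2.71 of the PCGF level in DMSO and 42.2% ± 3.15 in EZH2i (± SD, n = 3 per group). *BMI1* shares exons on its own strand with the readthrough gene *COMMD3-BMI1*, and *PCGF2* and *PCGF3* share exons with genes on the other strand, so their counts are uncertain.

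In canonical PRC1, CBX proteins bind H3K27me3 and PHC and SCM proteins polymerize the complex. Of 10 members 9 were tested, 7 with a fold change below 0 (77.8%, against 50.0% of all tested genes) and 2 above, and in none of the 9 were the groups apart, against 24.5% of all tested genes. *CBX6* was the most abundant, at 88.8, 96.5 and 87.6 CPM in DMSO and 79.6, 91.6 and 82.5 CPM in EZH2i (log2 fold change -0.10, 95% interval -0.32 to 0.12, adjusted p = 0.644 in edgeR). It was 71.1% ± 2.75 of the summed *CBX2*, *CBX6*, *CBX7* and *CBX8* level in DMSO and 70.6% ± 3.28 in EZH2i (± SD, n = 3 per group). *CBX8* had the smallest p of the role and the lowest fold change of all 41 members, at 11.2, 8.64 and 9.96 CPM in DMSO and 4.86, 7.54 and 9.28 CPM in EZH2i. The groups overlapped, EZH2i replicate 1 was the lowest, and the log2 fold change was -0.46 (standard error 0.234, 95% interval -0.95 to 0.04, adjusted p = 0.298 in edgeR) and -0.23 without that library. *PHC2* was the main Polyhomeotic transcript, with 67.9% ± 3.47 of the summed PHC level in DMSO and 67.3% ± 3.87 in EZH2i.

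Variant PRC1 held the member with the smallest p. *RYBP* (ENSG00000163602, chr3:72371825-72446621, minus strand), which takes the place of a CBX protein on RING1 or RNF2, was at 68.8, 63.3 and 66.8 CPM in DMSO and at 78.2, 93.3 and 83.3 CPM in EZH2i. The groups were apart, and the log2 fold change was 0.36 (standard error 0.108, 95% interval 0.13 to 0.59, unadjusted p = 0.00391, adjusted p = 0.0700 in edgeR). Without EZH2i replicate 1 it was 0.42 and passed the threshold (adjusted p = 0.0236 in edgeR), and adjusted p-values over the 12 alternatives ran from 0.0236 to 0.230. *BCOR*, a scaffold of the PCGF1 complex, was the most abundant of this role, at 108, 92.2 and 106 CPM in DMSO and 82.5, 107 and 113 CPM in EZH2i, with overlapping groups (log2 fold change -0.02, 95% interval -0.27 to 0.24, adjusted p = 0.961 in edgeR). *YAF2*, *KDM2B*, *BCORL1* and *L3MBTL2* had log2 fold changes from -0.16 to 0.15 and adjusted p-values from 0.516 to 0.659 in edgeR.

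The demethylases that remove H3K27me3 lay at the 43.5 percentile (*KDM6A*) and the 41.7 percentile (*KDM6B*) of the tested genes by level. *KDM6A* was at 18.6, 15.9 and 18.4 CPM in DMSO and 18.6, 18.9 and 20.7 CPM in EZH2i, with a log2 fold change of 0.14 (95% interval -0.17 to 0.45, adjusted p = 0.658 in edgeR) that was 0.069 without DMSO replicate 2. *KDM6B* was at 21.1, 17.9 and 16.1 CPM in DMSO and 15.5, 16.1 and 15.4 CPM in EZH2i, with a log2 fold change of -0.22 (95% interval -0.55 to 0.11, adjusted p = 0.480 in edgeR) that was -0.11 without DMSO replicate 1. The *KDM6A* groups were apart only by less than the rounding of the printed values, and those of *KDM6B* overlapped.

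The 3 tested members of the BAP1 complex had fold changes above 0, with overlapping groups in each. Over all tested genes 50.0% were below 0 and groups were apart in 24.5%, so nothing about the complex is read from this. *ASXL1* was its most abundant member, at 76.4, 77.1 and 82.4 CPM in DMSO and 87.6, 81.3 and 84.1 CPM in EZH2i (log2 fold change 0.10, 95% interval -0.11 to 0.31, adjusted p = 0.641 in edgeR). *ASXL2* was at 64.7, 72.2 and 62.6 CPM in DMSO and 69.4, 74.5 and 72.1 CPM in EZH2i (log2 fold change 0.12, 95% interval -0.11 to 0.34, adjusted p = 0.609 in edgeR). *BAP1* itself was at 24.8 ± 1.53 CPM in DMSO and 27.1 ± 1.75 CPM in EZH2i (± SD, n = 3 per group).

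**Figure D3:**
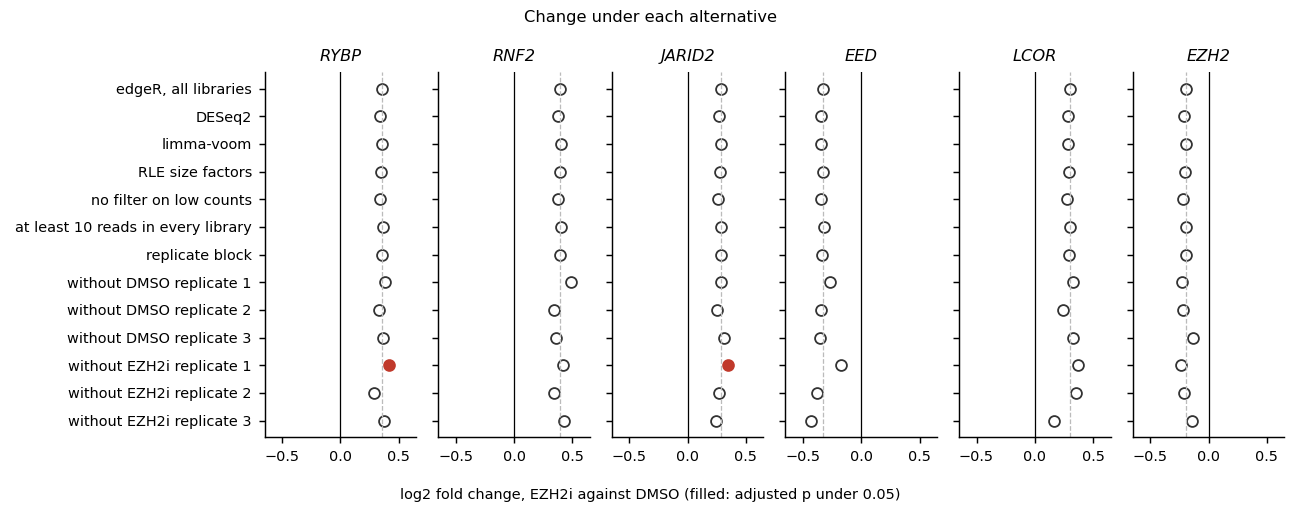
Log2 fold change of EZH2i against DMSO (horizontal axis) for the 5 members with an unadjusted p under 0.05 and for *EZH2*, in the test with all libraries and in 12 alternatives (rows); filled points have an adjusted p under 0.05 and the dashed line marks the value with all libraries. All points keep their sign, and the only filled ones are *RYBP* and *JARID2* without EZH2i replicate 1.

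Members that can fill the same place in a complex, belong to the same form of it (*AEBP2* and *JARID2*) or act on the same mark were compared within each library as the ratio of their levels. The ratios printed are those of the CPM values themselves, while the differences on the log2 scale and the tests have 0.5 CPM added to each level. The 9 pairs were tested by an exact permutation test over the 6 libraries, two-sided, in which 3 against 3 cannot give a p below 0.1. Groups were apart for 2 pairs, each at p = 0.1 in the exact test and 0.45 after Benjamini-Hochberg adjustment over the 9 pairs. The ratio of *RYBP* to *YAF2* was 1.74, 1.74 and 1.71 in DMSO and 1.90, 2.26 and 1.95 in EZH2i, a difference of 0.23 on the log2 scale. The ratio of *KDM6A* to *KDM6B* was 0.881, 0.887 and 1.15 in DMSO and 1.20, 1.17 and 1.34 in EZH2i, a difference of 0.35 on the log2 scale. The other 7 pairs overlapped, with differences from -0.27 to 0.28. The value of -0.27 was *AEBP2* over *JARID2*, with a ratio of 0.0950 in DMSO replicate 1 and from 0.0520 to 0.0645 in the other 5 libraries. The value of 0.28 was *RBBP4* over *RBBP7*, with a ratio of 2.13 in EZH2i replicate 1 and from 1.16 to 1.30 in the other 5 libraries. Without EZH2i replicate 1 the difference for *RBBP4* over *RBBP7* was 0.03.

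**Figure D4:**
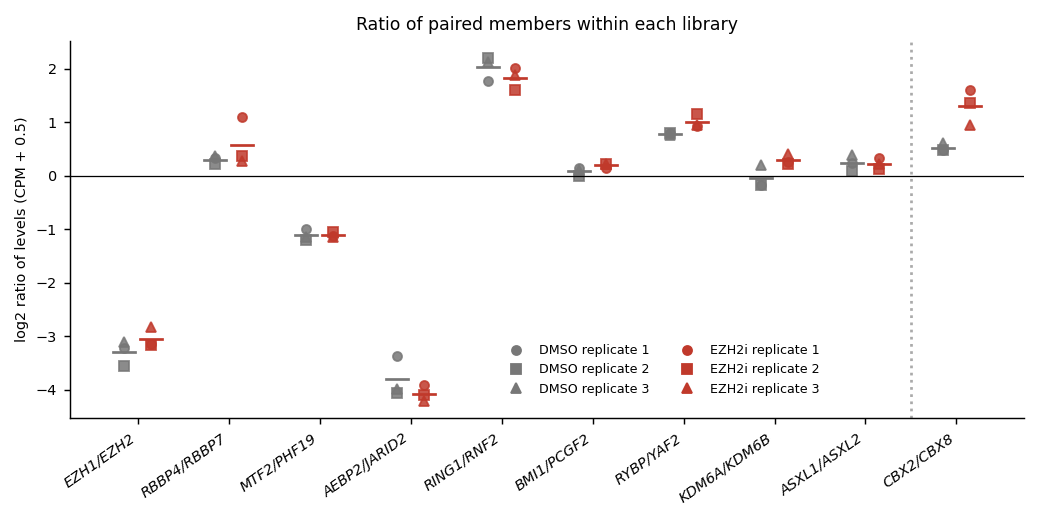
Log2 ratio of the levels of paired members (CPM with 0.5 added) in each library, grey for DMSO and red for EZH2i, with bars at the group means; right of the dotted line stands *CBX2* over *CBX8*, a pair chosen after its values were seen. Groups are apart for *RYBP* over *YAF2*, *KDM6A* over *KDM6B* and *CBX2* over *CBX8*, and 1 library sets the *RBBP4* over *RBBP7* mean in EZH2i.

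A list of 32 other genes whose products work with these complexes, among them the HDAC1 and HDAC2 deacetylases, the casein kinase subunits, the variant PRC1 factors MGA, MAX and E2F6 and the H2A deubiquitinases USP16 and MYSM1, was examined in the same test. Of these 31 were tested, *AUTS2* having 1 read in all, and none was called in edgeR at an adjusted p under 0.05, beside 4.26% of all tested genes. At an unadjusted p under 0.05 there were 5, or 16.1% against 19.1% of all tested genes, with 3 above 0 and 2 below. The smallest adjusted p was 0.0992, for *SFMBT1*, an MBT-domain protein singled out after its values were seen, at 34.0, 34.2 and 33.2 CPM in DMSO and 51.4, 39.5 and 41.7 CPM in EZH2i (log2 fold change 0.39). Without a filter on low counts 1 partner was called, where 928 of all 26226 genes were called. It was the casein kinase subunit *CSNK2A2*, which was at 525, 549 and 478 CPM in DMSO and 329, 453 and 465 CPM in EZH2i (log2 fold change -0.31, adjusted p = 0.166 with the filter, edgeR). *CSNK2A2* shares 3696 exon bases with a non-coding gene on the other strand, so its counts are less certain.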

How the data were processed

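RNA was profiled by 3′ mRNA-seq (QuantSeq FWD, single-end reads) in 6 libraries, 3 DMSO and 3 EZH2i, grouped by their labels. The authors aligned the reads to GRCh38 (hg38) and deposited raw read counts per Ensembl gene for each library; the submitters' processing notes name STAR 2.6.0c and HTSeq 0.11.2, and the strand setting of the counting is not given in the sources used here. Without it, reads of a gene and of a gene on the other strand of the same exons cannot be told apart: 13 members share exons with a gene on the other strand, 4 share exons with one on their own, and 9 have pseudogenes named after them. The authors' deposited comparison table (fold changes, standard errors, test statistics and p-values of a DESeq2 test) was not used.

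The 5 rows that name no gene were left out; between 63.6% and 67.9% of listed reads fell on genes. Symbols and positions come from GENCODE version 44. Counts were tested in edgeR 4.0.16 (R 4.3.3) by its two-sided quasi-likelihood test (estimateDisp, then glmQLFit, then glmQLFTest) after TMM scaling and filterByExpr at a minimum of 10 reads; p-values were adjusted by Benjamini-Hochberg over all genes tested, and calls were made under 0.05. The standard error is the log2 fold change divided by the square root of F, and the 95% interval uses the t quantile of the same test. Intervals cover the spread between these cultures, and the floor of 3 reads covers counting error only. Paralog ratios were tested with scipy 1.17.1. Alternatives were DESeq2 1.42.0, limma-voom (limma 3.58.1), RLE size factors, no filter, at least 10 reads in every library, a replicate block, a pseudocount of 0.1 CPM in place of 0.5 CPM, and leaving out each library. The fits were tested on simulated data.

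The members, lists, pairs and tests were chosen with earlier results of these data known. Genes named in full are the 6 PRC2 core subunits, members called, the member with the smallest p and the one with the highest level in each other role, members that failed the filter, and partners called; others are named as chosen after their values were seen, or with ranges. Promoter windows are RefSeq's (GRCh38.p14). Within each group, no library was a copy of another: chi-square divided by its degrees of freedom was 4.25 at least. One list of cell type markers is not reported here.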

Additional observations from a re-analysis of the deposited data

How the results depend on the processing

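None of the members tested was called under DESeq2, limma-voom, RLE size factors, either filter or the replicate block. The filter of at least 10 reads in every library left out *PHC1*, which had 9 reads in EZH2i replicate 1, and the other settings tested all 41. Leaving out 1 library at a time gave from 0 to 2 calls, the 2 being *RYBP* and *JARID2* without EZH2i replicate 1, where 536 of 12750 genes (4.20%) were called; the cause was not tested. Over all genes, 928 were called with no filter, 349 of them lower, in place of 527 and 114, and leaving out 1 library gave from 209 to 536 calls, from 180 to 412 higher and from 20 to 124 lower, with 213, 209 and 240 calls without DMSO replicates 1, 2 and 3. Without a filter 1 partner was called (*CSNK2A2*, adjusted p = 0.0482 in edgeR), where 26226 genes were tested in place of 12364.

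Fold changes of 27 members kept their sign in every alternative run, and those of 14 changed it in at least 1, in 29 of 491 fits of a member, none of them past the threshold. With 1 library left out, log2 fold changes ran from -0.11 to 0.21 for *EZH1*, -0.11 to 0.011 for *SUZ12*, -0.17 to 0.24 for *AEBP2*, -0.080 to 0.020 for *MTF2*, -0.090 to 0.027 for *PHF19*, -0.35 to 0.67 for *EPOP*, -0.0013 to 0.081 for *PCGF2*, -0.078 to 0.087 for *PCGF5*, -0.39 to 0.11 for *PHC1*, -0.16 to 0.032 for *PHC2*, -0.23 to 0.039 for *PHC3*, -0.23 to 0.073 for *SCMH1*, -0.13 to 0.49 for *SCML2* and -0.11 to 0.11 for *BCOR*. Without changing sign, they ran from -0.17 to -0.057 for *CBX6*, 0.21 to 0.42 for *CBX2* and 0.072 to 0.18 for *ASXL2*. *AEBP2* was also above 0 under limma-voom (0.045) and the replicate block (0.0058), and *PCGF5* was below 0 without a filter (-0.00096). Among the ratios, *MTF2* over *PHF19* ran from -0.041 to 0.061 and *ASXL1* over *ASXL2* from -0.089 to 0.061.

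No pairing by replicate number was found, since the deviations of libraries with the same number correlated at -0.051, -0.018 and -0.017. With replicate number as a block, 599 genes were called, 450 higher and 149 lower, with 0 members and 0 partners among them, and the median log2 fold change of the members was 0.0058. With 2 libraries against 3, the exact test of a ratio cannot go below 0.2.

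The log2 fold change had a standard error of 0.388 for *PHC1* at 1.96 CPM and 0.101 for *JARID2* at 212 CPM, with 0.351 for *EPOP* at 6.99 CPM, and the 95% interval for *PHC1* ran from -0.94 to 0.69.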

Other observations

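*CBX2* and *CBX8*, neighbours 4148 bp apart on chromosome 17, encode CBX subunits of canonical PRC1, and their ratio was examined after their values were seen. *CBX2* was at 15.9, 12.2 and 15.5 CPM in DMSO and at 15.8, 20.2 and 18.3 CPM in EZH2i, with overlapping groups and a log2 fold change of 0.32 (adjusted p = 0.299 in edgeR), while *CBX8* had one of -0.46 (adjusted p = 0.298 in edgeR). The ratio of their CPM values was 1.42, 1.41 and 1.56 in the DMSO libraries and 3.25, 2.68 and 1.97 in the EZH2i libraries, so the groups did not overlap, with a difference of 0.78 on the log2 scale once 0.5 CPM was added to each level (p = 0.1 in a two-sided exact permutation test, which 3 libraries against 3 cannot go below). Without EZH2i replicate 1, which had the highest ratio, the difference was 0.63, and it ran from 0.63 to 0.96 with 1 library left out. As the pair was chosen for its values, the p is a description.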
